A study of Mus musculus with 9 samples.

Results

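The 7 peaks described here are those at Aida and Brox, a pair of neighbouring genes on mouse chromosome 1, in a ChIP-seq study of the transactivator NLRC5 in mouse T cells. They were selected on measured peaks, as every peak that overlapped Aida or Brox or lay within 10 kb of the transcription start site (TSS) of either gene. This rule took 7 of the 8593 peaks of 7 deposited lists, 1 in each list, and they formed 1 of the 7980 sites obtained when overlapping peaks were merged. Their positions, widths, scores and ranks belong to the rule and are therefore given as a description with no test.

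The lists came from MACS-sorted T cells of WT and Nlrc5F/F mice, all on a C57Bl/6 (H2b) background, and of Rfx5-/- mice on a mixed Sv129/C57Bl/6 (H2b) background. Nlrc5F/F mice carry floxed Nlrc5 alleles and served as controls with a functional gene. The mice were 6 to 12 weeks old, and each genotype has 1 library made from the pooled chromatin of 5 animals. The 5 WT lists, A to E, were called on pseudo-replicates drawn from the same WT library. The spread between them therefore measures how reads were sampled, not how mice differ. The methods name reads of Nlrc5-/- T cells as the negative control for peak calling, without saying so separately for the Nlrc5F/F and Rfx5-/- lists. An effect of the Rfx5 deletion cannot be told apart from one of the mixed strain background. Peak lists do not allow the cell type to be checked against its markers. The lists held 459 to 1436 peaks in WT, 1949 in Nlrc5F/F and 1970 in Rfx5-/- cells. The methods give the same read number for each WT pseudo-replicate, and only a minimum for the other genotypes. The lists hold no read counts, so the coverage under a peak is unknown.

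NLRC5 is a member of the NLR family that activates MHC class I genes. It does not bind DNA by itself but is recruited by an enhanceosome of the RFX complex, CREB and ATF factors and NF-Y, which assembles on a module of S, X and Y boxes in class I promoters. RFX5 is a DNA-binding subunit of the RFX complex. Aida (axin interactor, dorsalization associated) encodes a protein that binds axin and blocks its activation of JNK signalling. Brox encodes a protein with a BRO1 domain and a CAAX motif, of the family that works with the ESCRT machinery in membrane remodelling. Neither belongs to the class I antigen presentation pathway.

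The sequence under the peaks is shown first, because it carries the comparison with the class I promoters. The Aida stretch runs from the first base of any peak to the last base of the Rfx5-/- peak (chr1:183299142-183299406, forward strand of GRCm38, 265 bases, RefSeq assembly GRCm38.p6). The single longer peak, that of WT list D, ended further downstream. Capitals mark the 191 bases that lay inside the peak of every list. Below it stand the stretches of class I promoters, not overlapping annotated exons, that hold the letters TGANG followed by ATTGG, which are letters of the X2 box and of the Y box. There the capitals mark these letters. The B2m stretch is chr2:122147599-122147648 on the forward strand, the H2-K1 stretch chr17:34000349-34000398 on the reverse strand, the H2-Q6 stretch chr17:35424734-35424785 on the forward strand, and the H2-Q7 stretch chr17:35439078-35439129 on the forward strand.
Aida: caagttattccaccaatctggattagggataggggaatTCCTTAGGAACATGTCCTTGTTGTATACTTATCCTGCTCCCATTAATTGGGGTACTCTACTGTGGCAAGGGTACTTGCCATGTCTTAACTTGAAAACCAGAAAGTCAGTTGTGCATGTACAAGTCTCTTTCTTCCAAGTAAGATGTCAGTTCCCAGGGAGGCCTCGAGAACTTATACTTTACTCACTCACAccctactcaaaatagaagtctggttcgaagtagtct
B2m: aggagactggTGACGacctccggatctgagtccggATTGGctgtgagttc
H2-K1: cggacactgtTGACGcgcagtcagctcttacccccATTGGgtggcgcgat
H2-Q6: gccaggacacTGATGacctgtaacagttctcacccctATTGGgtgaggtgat
H2-Q7: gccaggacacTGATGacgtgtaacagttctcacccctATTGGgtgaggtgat

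The site lay in an intron of Aida and on no exon of either gene. The merged peaks spanned chr1:183299142-183299545 (404 bp), within intron 1 of the coding transcript Aida-201 (183297629 to 183304677, 7049 bp). The site started 1514 bp after the end of exon 1 and ended 5133 bp before exon 2, and the nearest annotated exon, exon 1 of the transcript Aida-203, was 621 bp upstream. In the transcripts Aida-202 and Aida-207 the same bases lie in intron 2. Aida is transcribed from the forward strand and Brox from the reverse strand, and their 5' ends overlap, with the TSS of Aida-201 at 183297049 and that of the Brox gene model at 183297269. The site is therefore downstream of the Aida start and upstream of the Brox start. No peak of any list lay at this shared promoter. The centres of the 7 peaks were 1992 to 2080 bp from the Brox TSS and 2212 to 2300 bp from the TSS of Aida-201.

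**Figure D1:**
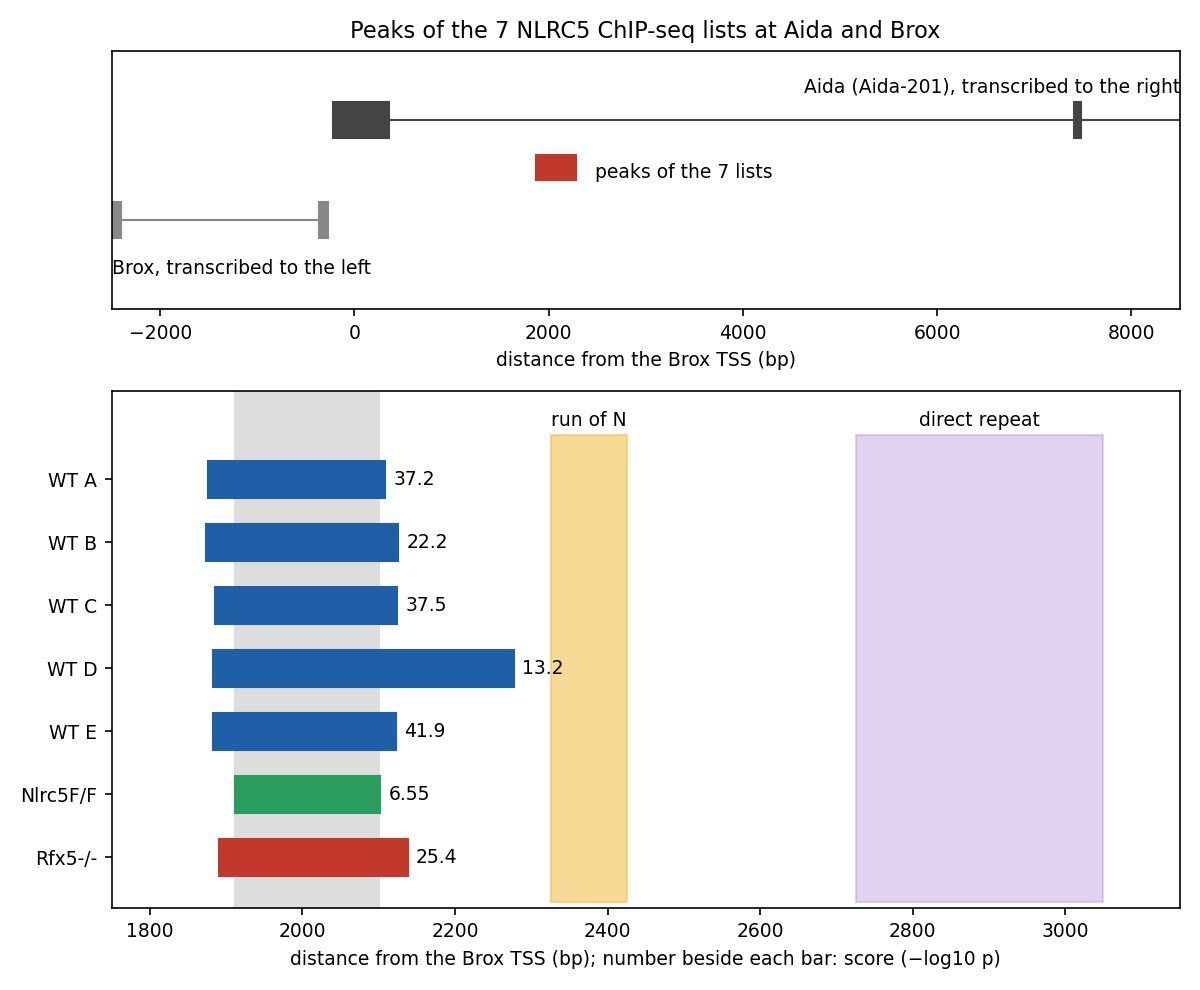
Peaks of the 7 lists by distance from the TSS of the Brox gene model in bp (horizontal axes). The upper panel shows the first exons of Aida-201 and of the Brox coding transcript with most exons, and the lower panel shows each peak as a bar with its score (−log10 p) beside it. Grey marks the 191 bp inside all 7 peaks. The yellow block is the run of 100 N in the reference and the violet block the direct repeat, and the peak of WT list D, 394 bp wide, comes closest to both.

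In the WT lists the site was among the 15 highest peaks. Its score, the −log10 p-value of MACS2, was 37.2 in list A, 22.2 in B, 37.5 in C, 13.2 in D and 41.9 in E. Lists A, C and E were close to each other, B was lower and D was the lowest. The corresponding ranks, counted from the highest score, were 7 of 459 peaks, 11 of 529, 7 of 1436, 15 of 1043 and 7 of 1207. The site thus held the same rank in the 3 lists with similar scores. These lists differ in length, but additional low-scoring peaks cannot move a rank counted from the top. The mean score was 30.4 ± 12.2 (SD over 5 draws from 1 library), and the median was 37.2.

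The score of the Aida site varied more between the pseudo-replicates than that of any of the 9 class I promoter sites used for comparison. Its coefficient of variation was 40.0%, and the highest score was 3.18 times the lowest. At the class I sites the coefficient was 3.31 to 28.3%, and the highest score was 1.08 to 2.20 times the lowest. H2-T22, a non-classical class I gene divergently paired with Gm6034, was the most variable of these with 28.3%, and H2-Q7 the least. A wide spread was not particular to Aida among the lower-scoring sites. WT scores ran from 8.55 to 21.0 at Speer4cos, 5.09 to 11.8 at Ifrd2 and 7.51 to 11.5 near Gm21847. As all these values come from draws of the same reads, they say nothing about variation between mice.

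In the Nlrc5F/F list the site was weak but present. The peak (183299180 to 183299370, 191 bp) had a score of 6.55 and a rank of 118 of 1949, which is within the upper 6.05% of the list, against 0.487 to 2.08% in the WT lists. It was the narrowest and lowest of the 7 peaks, and its 191 bp lay inside the peak of each other list. The WT median was 5.68 times the Nlrc5F/F score at Aida. At the class I sites the same quotient was 1.68 at H2-D1 to 6.82 at H2-Q4, so that Aida lay inside this range, above all class I sites but H2-Q4. Scores depend on depth, and the quotient is therefore set beside those of the other sites and is not a measure of binding.

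In the Rfx5-/- list the site was the highest peak of the nuclear genome. The peak (183299160 to 183299406, 247 bp) had a score of 25.4 and a rank of 2 of 1970, behind a mitochondrial peak with 33.8. The next scores were 23.9 and 22.4, both mitochondrial, and then 21.7 at a nuclear site that was in no other list. The Rfx5-/- list thus has no peak far above the others, and the lead of Aida over the next nuclear peak was 1.17-fold. The lowest score of the list was 3.01, and its highest was below that of every other list, which ranged from 103 to 244.

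The Rfx5-/- peak covered the same bases as the WT peaks. It shared 217 bp with the peak of list A, 234 bp with B, 233 bp with C, 247 bp with D and 231 bp with E. These are 87.9 to 100% of the Rfx5-/- peak. Of the WT peaks they are 92.9 to 97.5% in lists A, B, C and E and 62.7% in list D, whose peak extended further downstream. All of the Nlrc5F/F peak lay inside the Rfx5-/- peak.

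The comparison with the class I promoters in the same list is the question that the site raises, since NLRC5 is thought to reach these promoters through RFX. The 9 class I promoter sites were those of B2m, the light chain of class I molecules, of the classical heavy chain genes H2-D1 and H2-K1, of the non-classical H2-T10 and H2-T22 and their relatives H2-Q7, H2-Q6 and H2-Q4, and of Tap1, the peptide transporter subunit that shares its promoter with the immunoproteasome gene Psmb9. Each had a peak in all 5 WT lists and in Nlrc5F/F cells, 54 peaks in all, and 0 of the 9 had a peak in Rfx5-/- cells. The Aida site had a peak in all 7 lists. These 9 sites were named by the list of comparison sites and are not all class I promoters with a recurrent peak. The promoters of H2-M3 and H2-K2 also had a peak in all 5 WT lists, with a median rank of 27 each, behind the 7 of Aida, and had none in Nlrc5F/F or Rfx5-/- cells. The contrast in Rfx5-/- cells was part of how the Aida site was chosen. A list holds only positions that passed the calling threshold, so that a weaker signal at the class I promoters was not detectable here.

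Where both were present, the Aida site scored below most of the 9 class I promoter sites. In list A its score of 37.2 was 0.358 times the class I median of 104, in B the ratio was 0.199, in C 0.382, in D 0.140 and in E 0.475. It was above H2-Q6, H2-T22 and Tap1 in lists A, C and E and above none of the 9 sites in B and D. The order relative to these low class I sites therefore changed from draw to draw, while the 6 others of the 9 were above Aida in every WT list. In Nlrc5F/F cells the ratio was 0.253, and the site was above H2-T22 (6.12) alone. H2-T22 there had a rank of 262, and the other 8 class I sites ranked between 1 and 46, so that Aida and H2-T22 stood behind them. In the 5 WT lists the class I sites had a median rank of 5, and Aida ranked at 1.4 to 3 times this value. In Nlrc5F/F cells the median class I rank was 6, and the rank of Aida was 19.7 times this value.

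**Figure D2:**
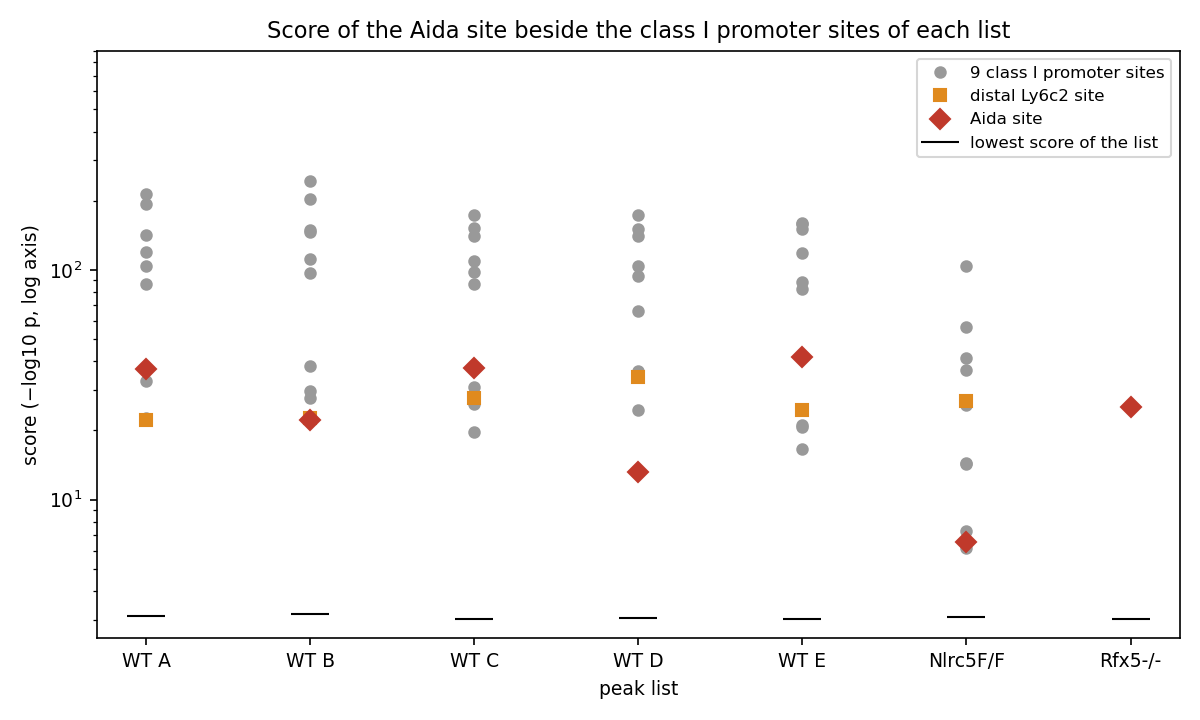
Score (−log10 p, log axis) of the Aida site (red diamonds), the 9 class I promoter sites (grey points) and the distal Ly6c2 site (orange squares) in each of the 7 lists, with black dashes at the lowest score of a list. In the Rfx5-/- list the Aida site stands at 25.4, and none of the other plotted sites has a peak there. The neighbouring Ly6c2 site, which has an Rfx5-/- peak with a score of 5.89, is not drawn. In Nlrc5F/F the Aida site stands at 6.55, near the lower end of the class I sites.

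The peak at Aida was narrower than most of the class I peaks of the same list. Its width was 232 bp in list A, 252 in B, 239 in C, 394 in D and 239 in E, 191 in Nlrc5F/F and 247 in Rfx5-/- cells. Apart from list D the WT widths differed by 20 bp at most. Class I peaks had a median width of 656 to 700 bp in the WT lists and 299 bp in Nlrc5F/F cells. In lists A, B, C and E 1 class I peak, that of H2-Q6, was narrower than the Aida peak. In list D the peaks of H2-Q6 and Tap1 were narrower, and in Nlrc5F/F cells those of H2-Q6, Tap1 and H2-T22. The Aida peak was still 1.71 to 3.94 times as wide as the median peak of its list over the 7 lists. Its start was well defined, within 12 bp over the WT lists, against 8 to 125 bp at the class I sites. Its end varied by 169 bp, which the peak of list D alone set. Without list D the merged WT peaks spanned 252 bp.

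**Figure D3:**
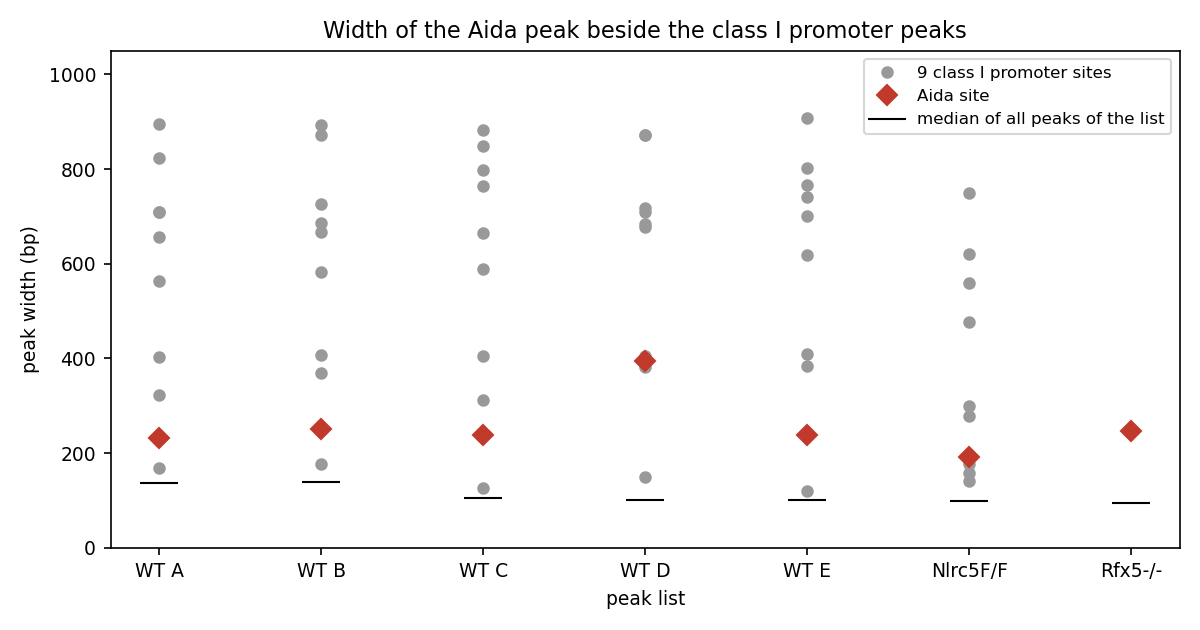
Width in bp of the Aida peak (red diamonds), of the class I promoter peaks (grey points) and of the median peak of each list (black dashes). The Aida peak stays between 191 and 252 bp except in WT list D (394 bp), below most class I peaks and above the list median in all 7 lists.

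How often a site of the WT lists was kept in Rfx5-/- cells gives the background for the Aida site. Of the 32 sites present in all 5 WT lists, 10 had a peak in the Rfx5-/- list (31.2%), and 7 of 29 did outside the mitochondrial genome (24.1%). In the Nlrc5F/F list 17 of the 32 were present (53.1%). That list held 0 mitochondrial peaks, so outside the mitochondrial genome the count was 17 of 29. Presence in Rfx5-/- cells was thus shared with 6 other nuclear sites, and nothing was read from the presence of Aida among them. The part of the Nlrc5-/- control, which the lists share as far as the methods say, in the recurrence of these sites was not tested. The other 6 nuclear sites had Rfx5-/- scores of 5.89 to 10.4, against 25.4 at Aida, and WT medians of 5.36 to 17.5, against 37.2. Among the 11 sites with the highest WT medians, which were Aida, the class I promoters and the distal Ly6c2 site, Aida was the one with an Rfx5-/- peak. The paper's results give both distal sites, Aida and Ly6c2, as not dependent on Rfx5. Its methods instead describe all reproducible peaks as absent in the Rfx5-/- sample.

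**Figure D4:**
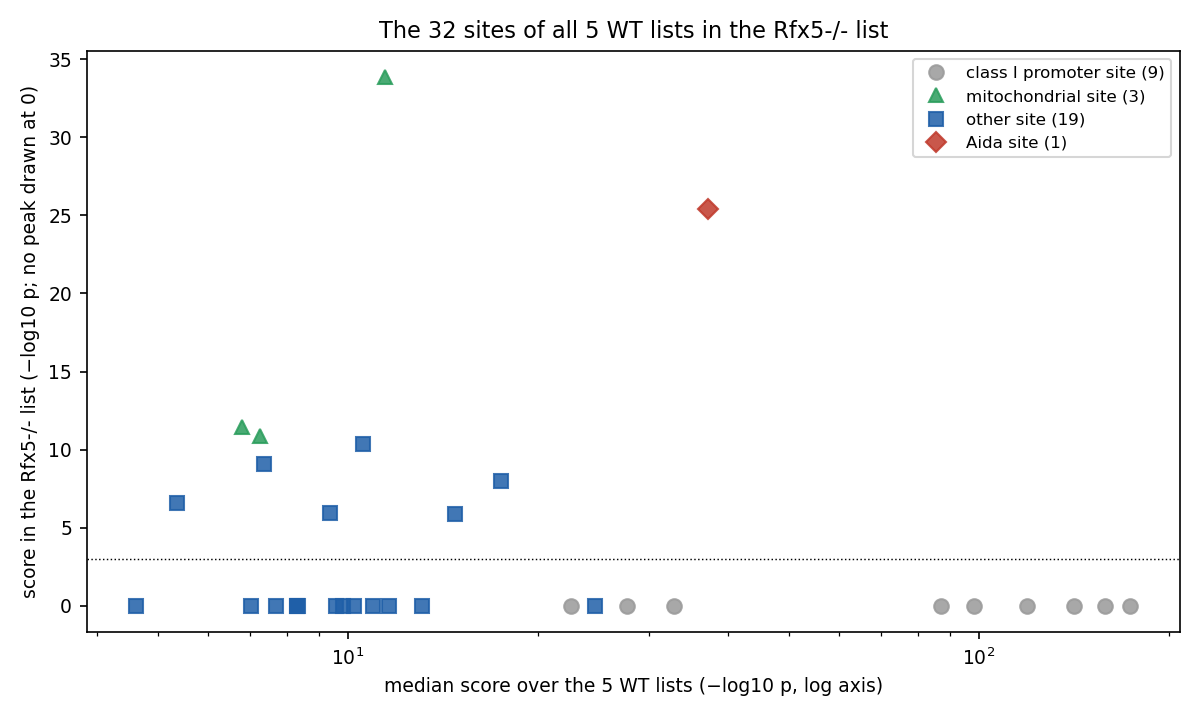
The 32 sites of all 5 WT lists by their median WT score (horizontal, −log10 p, log axis) and their score in the Rfx5-/- list (vertical, −log10 p, sites without a peak drawn at 0). The dotted line is the lowest score of the Rfx5-/- list, 3.01. The 9 class I sites lie at 0, the Aida site at 25.4, and the other kept nuclear sites at 10.4 or less.

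The distal Ly6c2 site was the other site of this strength away from class I promoters. It lay 26131 bp from the TSS of Ly6c2, which encodes a Ly6C surface antigen, at chr15:75085766-75085912. Its scores of 22.3 to 34.2 and ranks of 8 to 11 in the WT lists overlapped those of Aida. In list D it scored 34.2, where Aida had 13.2, and in the other lists but B it scored below Aida. In Nlrc5F/F cells it ranked 5 with 26.8, where Aida ranked 118. In Rfx5-/- cells the interval had no peak, but a neighbouring site (75086714 to 75087018), which was present in all 7 lists, had a peak there with a score of 5.89 and a rank of 182. That neighbour scored 7.71 to 16.6 in the WT lists and 3.70 in Nlrc5F/F cells.

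The sites with the most similar ranks were found by the mean absolute difference in log10 rank over the 7 lists, among the 6 sites present in all of them. Nearest to Aida was the site at Speer4cos on chromosome 5 (15680569 to 15680906), with a mean difference of 0.543. It scored 8.55, 17.5, 17.8, 21.0 and 15.5 in WT lists A to E, 18.1 in Nlrc5F/F and 8.00 in Rfx5-/- cells. Its highest ranks were in Nlrc5F/F (8) and list D (11), the lists in which Aida ranked lowest. Next came a site near Gm21149 on chromosome 5 (15484185 to 15484350), with 0.589, and a site near Gm28502 and Ly6c2 on chromosome 15 (75086714 to 75087018), with 0.689. The sites near Gm21847 and at Ifrd2 followed with 0.725 and 0.817. A difference of 0.543 corresponds to ranks several-fold apart, and none of the other sites present in all 7 lists followed the ranks of Aida closely. Sites without a peak in some list, among them every class I site, were outside this comparison. H2-T22, with no Rfx5-/- peak, ranked 7 to 13 in the WT lists and 262 in Nlrc5F/F cells. Aida ranked 7 to 15 and 118 there. The first of these sites lies on a promoter, Ifrd2 too, and the other 3 lie outside annotated genes, so that Aida was the single intron site among the 6.

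**Figure D5:**
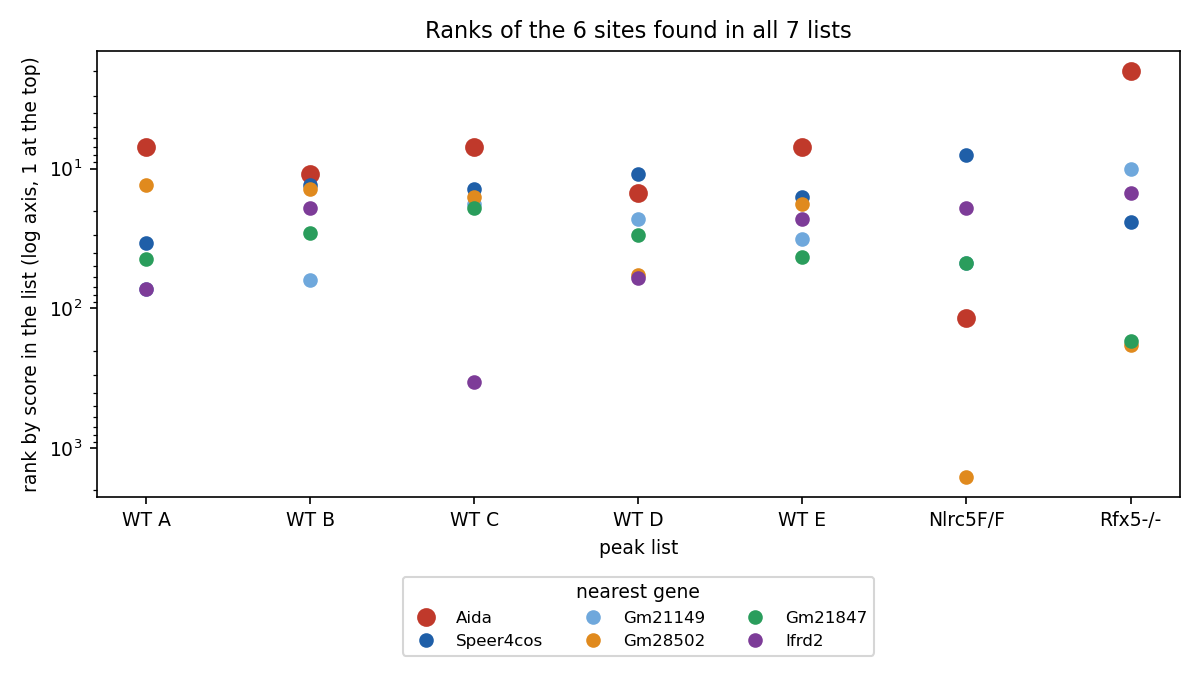
Rank by score (log axis, 1 at the top) in each of the 7 lists for the 6 sites found in all of them, named by gene. The Aida site (red) ranks 7 to 15 in the WT lists, 118 in Nlrc5F/F and 2 in Rfx5-/- cells, where the other 5 rank between 10 and 182.

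Few of the recurrent sites lay in introns. Over all 7980 sites 42.4% lay in an intron, 44.0% outside genes, 6.92% on a promoter (from 500 bp before to 50 bp after a TSS) and 6.68% on another exon. Of the 32 sites of all 5 WT lists, 19 lay on a promoter, 2 on an exon, 2 in an intron and 9 outside genes. The 19 include the 9 class I promoter sites, those of H2-M3 and H2-K2, and mitochondrial sites at mt-Nd6 and mt-Th. Known class I targets therefore weigh heavily in these counts. The Aida site was 1 of the 2 intron sites, the other being on the X chromosome near Gm15247.

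The surroundings held no further peaks. The genes with a TSS within 100 kb were Mia3, Disp1 and Taf1a and the pseudogenes Gm37339 and BC085271, and none had a peak of any list in its body or within 10 kb of its TSS. The first peak outside the rule was in WT list B (183442165 to 183442312), 142.6 kb downstream, with a score of 5.39. In the other lists the nearest peak was 604 kb (Rfx5-/-) to 3394 kb (list A) away. The members just inside and just outside the rule are therefore far apart in position.

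Peaks were also looked up at genes related to Aida or Brox by function and at genes of the NLRC5 machinery. Of the 5 genes of the BRO1 domain family (Brox, Pdcd6ip, Ptpn23, Rhpn1 and Rhpn2) 1 had a peak of any list within 10 kb of its TSS, and this was Brox. Neither of the axin genes, Axin1 and Axin2, had one. The same held for 9 of 9 genes of the enhanceosome and of NLR transactivators, namely Rfx5, Rfxap, Rfxank, Creb1, Nfya, Nfyb, Nfyc, Nlrc5 and Ciita. Over all 21951 protein-coding genes 2190 (9.98%) had a peak of at least 1 list within 10 kb, and 7 (0.0319%) had a peak in each of the 7 lists. Aida and Brox account for 2 of these 7, through the same site. As only 9.98% of coding genes had a peak, nothing was read from its absence at the few genes listed.

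The letters of the X2 and Y boxes were searched on both strands of a 404-base window at each site. TGANG followed 20 to 30 bases later by ATTGG on the same strand was found at 6 of the 9 class I sites, as shown above for B2m, H2-K1, H2-Q6 and H2-Q7, and was not found at Aida. It occurred in 2.78% of 7979 windows of this length at all sites and in 2.79% of 32851 RefSeq promoters of 300 bases. H2-T10, H2-T22 and Tap1 did not hold this spacing either. By their own motif search, the authors list a module at each of these promoters and none at Aida. The Aida window held no TGANG at all, which 95.2% of the site windows and 89.4% of the promoters hold, and all 9 class I windows hold. TGACG, which TGANG includes, was found in 11.6% of site windows and 20.8% of promoters, and also not at Aida.

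The Aida window did hold letters of the Y box. ATTGG was present at 183299225 to 183299229 on the forward strand, inside the bases common to all peaks, where it stands in capitals in the stretch above, and at 183299154 to 183299158 on the reverse strand. It is a frequent sequence, found in 47.9% of site windows, 37.4% of promoters and all 9 class I windows. GTTNCC, letters of an X1 half-site, was present 1 time at 183299328 to 183299333, against 46.4% of site windows, 45.3% of promoters and 6 of the 9 class I windows. A match or its absence describes these letters in this window and does not bear on the binding of a factor.

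In base composition the site lay between the class I promoters and the bulk of the sites. Its GC content was 46.8%, against 49.5 to 61.6% in the class I windows and a median of 40.1% over all sites. It held 6 CG dinucleotides, where the class I windows held 2 to 25 with a median of 20. The RefSeq promoters of Aida and Brox, 300 bases each, which carried no peak, had 63.7 to 71% GC. Repeat-masked bases made up 20.3% of the Aida window, 0 to 19.1% of the class I windows and a median of 17.8% over all sites.

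The assembly beside the site is incomplete. A run of 100 N (183299595 to 183299694), a gap in the reference, starts 50 bp after the end of the merged site. Between the end of the peak and this run lay 49 bases in WT list D and 188 to 224 bases in the other lists. Of 7979 sites, all but a mitochondrial site at the end of its reference sequence, 5 (0.0627%) lay within 1 kb of such a run. Among the sites of all 5 WT lists it was 1 of the 31 left without that mitochondrial site, namely Aida, and the nearest run to any class I site was over 8 Mb away. Beyond the gap, from 183299995 to 183300318, lay a direct repeat of 324 bp with a period of 19 bp, about 17 copies, at 95% identity or more between neighbouring copies. The part of this gap and of the repeat in the peak was not tested.

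Relatives of the sequence occur elsewhere in the genome. Of the 50-base windows starting in the site, 91.1% occurred once in the primary assembly, and the most frequent occurred 4 times. In the 1 kb upstream all windows were unique, and in the 1 kb downstream 70.3% were. At the class I sites 68.9% (H2-Q7) to 100% (B2m and Tap1) of the windows were unique, and H2-Q6 had 73.0%. A BLAST search with the 404 bp gave 962 alignments on 21 chromosomes, 536 of them over at least 200 bp. Their median identity was 70.8% and the highest 90.2%, and 7 reached 80%. The same search gave no alignment at B2m or Tap1, and 11 to 18 alignments, on 1 chromosome, at the H2-D, H2-K and H2-Q sites. At H2-T10 and H2-T22 it gave 4894 and 33701 alignments, of which 1 each reached 200 bp. These relatives of the Aida sequence were thus many, dispersed and mostly distant. The reads were kept by the authors where their position was unique, and how the relatives affect the read counts of this site was not tested.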

How the data were processed

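NLRC5 ChIP-seq peaks were analysed in 7 lists, 5 of WT pseudo-replicates and 1 each of Nlrc5F/F and Rfx5-/- T cells. The Nlrc5-/- and complete WT samples were not analysed here. According to the methods and the submitters' processing notes, the authors aligned Illumina reads to GRCm38 using Bowtie 0.12.7, discarded reads without a single position, and ran MACS2 2.0.10.20130520 at p = 0.001, with Nlrc5-/- reads named as the control. The notes also name CASAVA 1.8.2. The deposited score is a −log10 p-value, as judged from the lowest score of each list, just above 3. Settings for the Nlrc5F/F and Rfx5-/- lists are not given separately in the sources used here, and the lists hold no read counts.

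Starts were converted to 1-based positions. Ranks count from the highest score in a list. Overlapping peaks (at least 1 bp) were merged into sites. At each of 9 class I genes listed for comparison, the highest site within 500 bp of the TSS in all WT lists was used, and H2-M3 and H2-K2 were not on this list. GENCODE M21 gave genes and exons, and RefSeq GRCm38.p6 gave sequence and promoters. Unique windows and BLAST 2.17.0 alignments (E at most 1e-05) used the primary assembly, without patches and alternate loci. Python 3.11.15, numpy 2.4.6, pysam 0.24.0 and matplotlib 3.10.9 were used. Merging, ranking, letter search and copy number passed 7 of 7 checks on simulated data.

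The members, the gene lists and the comparison sites were chosen with earlier results of these data known. The genes named are Aida, Brox, the class I promoter sites, the distal Ly6c2 interval, nuclear sites of all 7 lists with the 3 most like Aida in rank, genes of 3 functional lists and genes within 100 kb. Gm15247, H2-M3 and H2-K2 were named after their values were seen. With 1 library per genotype no test between genotypes or sites was made. Values of the 5 WT lists were screened with Dixon's ratio as a description. The alternatives varied the overlap, score minimum, window, mitochondrial peaks, pseudo-replicates, comparison sites and window length.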

Additional observations from a re-analysis of the deposited data

Results flagged for a closer look

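The peak of WT list D stood apart from those of the other WT lists at its downstream end. It ended at 183299545, where the other 4 ended between 183299376 and 183299393, and it was 394 bp wide against 232 to 252 bp. Its gap to the nearest list was larger, relative to the range of the 5 lists, than Dixon's 95% critical value for both measures. This screen describes draws from 1 library, over values that also chose the site, and is no test between mice. Chance alone exceeds this value in about 1 of 20 groups, the 2 measures are not independent, and 6 measures were examined. The starts, the scores, the ranks and the ratio to the class I median did not exceed it. List D also had the lowest score, 13.2, and its peak ended 49 bases before the run of N. The part of this gap in the longer peak was not tested.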

How the results depend on the processing

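Of 38 alternatives, 33 left the value within the spread of the WT lists or, for a count, within 1.5 times, and 5 moved it. The share of unique windows was judged by a binomial error over its windows, which overlap and are not independent. Without mitochondrial peaks the rank in the Rfx5-/- list was 1 in place of 2. As a ratio of ranks the comparison with the class I median was 1.4, a different quantity from the 0.358 obtained with scores, and in both the Aida site stood behind the median class I site. The merged WT site was 404 bp wide, against a median peak of 239 bp. When presence in 3 WT lists was enough, 24 sites had a peak in the Rfx5-/- list in place of 10. This looser rule can only add sites, and the share that 24 makes of them is not given here. With windows of 36 bases 76.0% were unique, in place of 91.1%. The Aida site was found in 7 lists with a minimum score of 5, or with 50% overlap of both intervals with the list A peak. Peaks extended by 200 bp also gave 7, and this alternative could not lower the count. With a score of at least 10 the site was found in 6 lists, as the Nlrc5F/F peak did not reach this score. Leaving out each pseudo-replicate gave a median rank of 7 to 9, a median score of 29.7 to 37.3, a ratio to the class I median of 0.278 to 0.370, and 10 to 14 sites kept in Rfx5-/- cells. The last count, too, could only stay or rise, and its share is not given. With 1 library per genotype, the lists cannot show the spread between mice. Scores depend on depth, which the methods give as equal for the WT pseudo-replicates and only as a minimum for Nlrc5F/F and Rfx5-/- cells. No paired analysis was possible because no comparison between groups was tested and the WT lists are draws from 1 library.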
